A study of Mus musculus with 3 samples.

Results

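The interferon receptor chains are the 6 genes Ifnar1, Ifnar2, Ifngr1, Ifngr2, Ifnlr1 and Il10rb, taken by their symbols from the 19059 genes of the deposited matrices. All 6 have an entry. Their transcripts were followed across the cell types of mouse blood, with Ifnlr1 in neutrophils as the main subject. The members were chosen by measured values: the counts of Ifnlr1 UMIs (unique molecular identifiers, counted transcript molecules) per cell type in these same data. The levels of Ifnlr1 across cell types are therefore given as a description, with no test, and the same holds for every member between neutrophils and Ly6c-high monocytes. The data are 3 single-cell libraries of leukocytes from untreated male mice, 1 each at 8, 9 and 10 weeks of age, here replicates 1, 2 and 3. By its title the series is about macrophages of the spleen after myocardial infarction, but the libraries used here hold only blood of untreated animals, and no genotype other than sex is given. Red cells were lysed, and cells were sorted on the nuclear dyes DAPI and Draq5, fixed, and counted with gene-specific probes. The labels do not say whether the libraries come from separate animals. An SD here measures the spread between 3 libraries, which also differ in age. A p-value weighs a difference against the variation left once differences between these libraries are removed. Whether either covers a spread between animals is not known.

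Interferons signal through receptors of 2 chains. IFNAR1 and IFNAR2 form the receptor of the type I interferons (IFN-α and IFN-β), with the kinases TYK2 on IFNAR1 and JAK1 on IFNAR2. IFNGR1, which binds IFN-γ and carries JAK1, and IFNGR2, which carries JAK2, form the receptor of the type II interferon. IFNLR1 binds the type III interferons (IFN-λ) and pairs with IL10RB, a chain that the receptors for IL-10 and IL-22 also use. Most nucleated cells respond to types I and II, whereas the response to type III is known mainly from epithelia and, in the mouse, from neutrophils.

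In the GENCODE annotation of GRCm38, 4 of the 6 genes lie close together on the plus strand of chromosome 16. These are Ifnar2 (ENSMUSG00000022971, chr16:91372783-91405589), Il10rb (ENSMUSG00000022969, chr16:91406164-91425834), Ifnar1 (ENSMUSG00000022967, chr16:91485238-91507441) and Ifngr2 (ENSMUSG00000022965, chr16:91547072-91565623). Ifngr1 (ENSMUSG00000020009) lies at chr10:19591949-19610229 and Ifnlr1 (ENSMUSG00000062157) at chr4:135686287-135708181, both on the plus strand. A further gene model, Gm21970 (chr16:91391721-91419451), overlaps both Ifnar2 and Il10rb. It has no entry in the matrices, and the positions of the probes are not given, so counts of Ifnar2 and Il10rb are uncertain to that extent. The build the counts were made on is not given in the sources used here, so these coordinates come from the annotation alone.

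After filters, 21767 cells remained (10337, 4935 and 6495 in replicates 1, 2 and 3). They were sorted into classes by the number of cell-type markers with a UMI, with no clustering and with none of the 6 members as a marker. The classes held 2646 neutrophils, 549 Ly6c-high and 655 Ly6c-low monocytes, 9482 B cells, 2317 CD4 T cells, 2875 CD8 T cells, 882 natural killer (NK) cells and 365 platelets. Smaller classes held 80 gamma-delta T cells, 73 basophils, 48 erythroid cells and 42 dendritic cells. S100a8, one of the markers that define the class, was detected in all neutrophils. The 8 neutrophil markers together took 136482 to 140803 CPM (counts scaled to the same total per sum) in neutrophils over the 3 libraries, 190 to 287 CPM in B cells and 621 to 709 CPM in Ly6c-high monocytes. S100a8 was also detected in 15.5% of B cells and 18.6% of CD4 T cells, a background that free RNA can give. The libraries share 48 to 101 barcode sequences per pair.

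Ifnlr1, the chain that makes a cell able to bind IFN-λ, was found in neutrophils and, at a lower level, in B cells. Of its 415 UMIs, 247 (59.5%) were in neutrophils and 143 (34.5%) in B cells. In neutrophils its level was 34.2 CPM in replicate 1, 23.6 CPM in replicate 2 and 39.1 CPM in replicate 3. In B cells it was 4.90, 4.53 and 4.07 CPM, and the libraries of neutrophils all stood above those of B cells. The mean was 32.3 ± 7.91 CPM in neutrophils and 4.50 ± 0.41 CPM in B cells (SD, n = 3 each). Pooled over libraries, the level in neutrophils was 7.44 times that in B cells (exact 95% interval 6.03 to 9.21, counting error only). CD8 T cells held 4 UMIs, CD4 T cells 1 and NK cells 1. Both monocyte subsets, platelets, gamma-delta T cells, basophils, dendritic cells and erythroid cells held none. In the small classes this does not show absence. The exact 95% upper bound on the share of cells with a UMI was 8.41% in dendritic cells and 7.40% in erythroid cells. It was 4.93% in basophils, 4.51% in gamma-delta T cells and 1.01% in platelets. Against a floor of 3 counts over the group, neutrophils were at least 51.9-fold higher than Ly6c-high monocytes and at least 36.2-fold higher than Ly6c-low monocytes in plain CPM.

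An Ifnlr1 UMI was seen in 8.72% of neutrophils in replicate 1, 5.70% in replicate 2 and 10.0% in replicate 3, or 223 of 2646 cells in all (8.43%, exact 95% interval 7.40% to 9.55%). Of these cells, 201 held a single UMI, 20 held 2 and 2 held 3. In B cells, 129 of 9482 cells held a UMI (1.36%, interval 1.14% to 1.61%). T cells serve as the background here, since their depth is close to that of B cells: the median UMI count was 3072 to 3224 in B cells and 3282 to 3607.5 in CD4 T cells. An Ifnlr1 UMI was found in 0.0432% of CD4 T cells (interval 0.00109% to 0.24%) and 0.139% of CD8 T cells (interval 0.0379% to 0.356%). By library, the share in B cells was 1.51%, 1.37% and 1.25%, against at most 0.0674% in CD4 T cells and 0.181% in CD8 T cells. The intervals pool cells over libraries and cover counting error only, not the spread between libraries, so they describe these classes and test nothing. None of 549 Ly6c-high monocytes held a UMI, which allows a share of up to 0.546% at 3 counts (exact 95% upper bound 0.670%), and none of 655 Ly6c-low monocytes did, which allows up to 0.458% (exact upper bound 0.562%). Ly6c-high monocytes were the deepest of the larger classes, at a median of 8110 to 9239 UMIs, against 2657 to 2808.5 UMIs in neutrophils. With every cell thinned to 2000 UMIs, which leaves out 9.33% of neutrophils and 6.40% of B cells, the share was 6.35% ± 1.47 in neutrophils, 0.756% ± 0.115 in B cells and 0 in both monocyte subsets. Neutrophils stood highest with and without thinning.

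**Figure D1:**
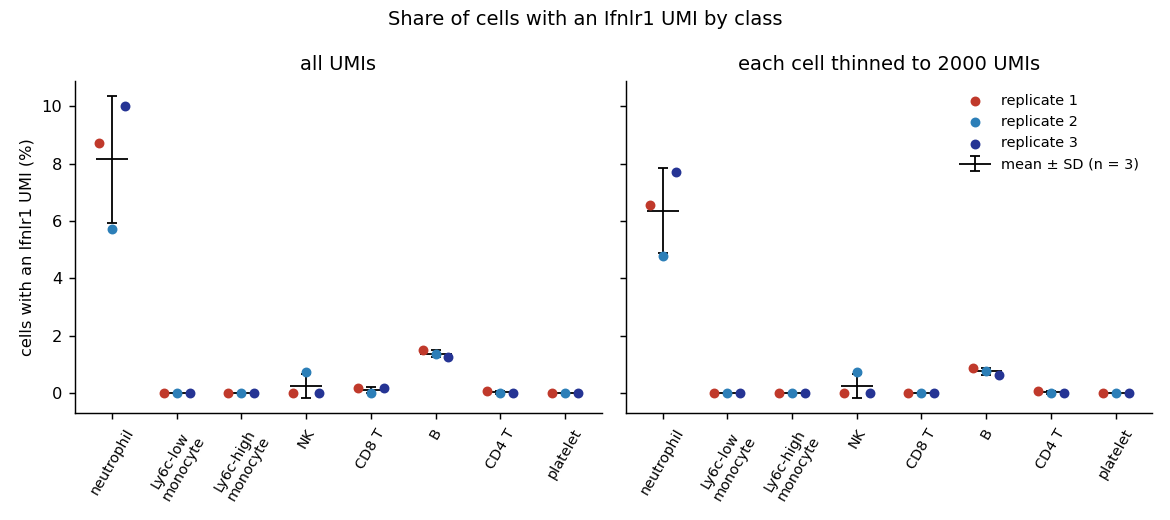
Share of cells with an Ifnlr1 UMI (percent, vertical axis) in 8 classes, with all UMIs (left) and with each cell thinned to 2000 UMIs (right). Points are the 3 libraries and black marks the mean ± SD; all neutrophil points lie above those of every other class, and B cells come next.

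The genes whose level was most like that of Ifnlr1 were sought among 9401 genes at 20 CPM or more in some class, by Pearson's r of log2(CPM + 1) over 24 sums (8 classes in 3 libraries, which share depth and free RNA within a library). Among the highest was Wfdc21, a small secreted protein (r = 0.943). Steap4, a metalloreductase, followed at 0.928, Sema7a, a membrane-anchored semaphorin, at 0.918 and Gpat3, an enzyme of triglyceride synthesis, at 0.896. Wfdc21 had 806 CPM in neutrophils and 15.2 CPM in B cells. Steap4 had 139 CPM in neutrophils and 1.57 CPM in B cells. Gpat3 had 27.6 CPM in neutrophils and 22.6 CPM in B cells, so the genes most like Ifnlr1 differ in how far they extend into B cells.

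Il10rb, the partner of IFNLR1 and of the IL-10 receptor's ligand-binding chain, was detected in every class, with its highest plain level in NK cells. Its level in NK cells was 378, 359 and 389 CPM in replicates 1, 2 and 3. In neutrophils it was 236, 259 and 247 CPM and in B cells 206, 207 and 202 CPM. These 3 classes did not overlap with each other in plain CPM. Ly6c-low monocytes (179 to 268 CPM) overlapped with neutrophils, B cells and CD8 T cells (156 to 209 CPM), and CD4 T cells had the lowest level of the lymphocytes (65.0 to 113 CPM). Neutrophils stood first once totals were scaled with TMM, a factor that evens out the bulk of genes, at 421 ± 15.7 TMM-scaled CPM against 286 ± 6.47 in NK cells. The order of these 2 classes depends on the scale.

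In 103 of the 2646 neutrophils an Ifnlr1 UMI and an Il10rb UMI were seen in the same cell, a share of 3.77% ± 1.26 over the libraries. In B cells there were 75 such cells (0.81% ± 0.12), in CD8 T cells 2, and none in monocytes, CD4 T cells or NK cells. Thinned to 2000 UMIs, the share was 2.27% ± 0.49 in neutrophils and 0.30% ± 0.10 in B cells. An Il10rb UMI was present in 45.7% ± 3.32 of neutrophils with an Ifnlr1 UMI and in 46.6% ± 5.38 of depth-matched neutrophils without one, and the libraries overlapped. In B cells these shares were 58.9% ± 9.32 with an Ifnlr1 UMI and 53.7% ± 2.91 without one, and the libraries overlapped.

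**Figure D2:**
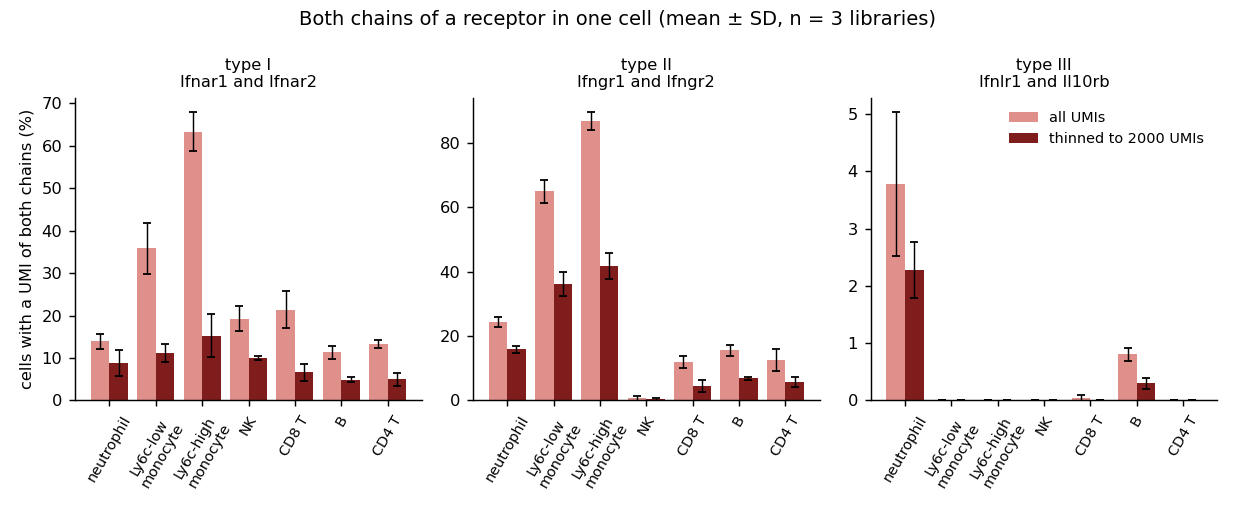
Share of cells with a UMI of both chains of the type I, type II and type III receptors (percent, vertical axes that differ between panels) in 7 classes, as mean ± SD over 3 libraries, with all UMIs (light) and with each cell thinned to 2000 UMIs (dark). Type II pairs are most frequent in monocytes and nearly absent in NK cells, and type III pairs are seen in neutrophils and B cells.

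Ifngr1 and Ifngr2, the chains of the IFN-γ receptor, did not follow each other across classes. Ifngr1 was highest in Ly6c-low monocytes (1852, 1634 and 1742 CPM in replicates 1, 2 and 3), followed by NK cells (1445, 1332 and 1196 CPM) and Ly6c-high monocytes (1144, 1013 and 1156 CPM). None of these 3 ranges overlapped in plain CPM, although NK cells and Ly6c-high monocytes overlapped after TMM scaling. CD8 T cells had 517, 623 and 486 CPM of Ifngr1, neutrophils 303, 292 and 378 CPM, CD4 T cells 289, 387 and 250 CPM and B cells 188, 191 and 178 CPM. On this plain scale neutrophils and CD4 T cells overlapped and B cells stood below both. After TMM scaling neutrophils (490 to 618 TMM-scaled CPM) stood above CD8 T cells (349 to 459) and CD4 T cells (179 to 281), with no overlap.

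In plain CPM, Ifngr2 was highest in Ly6c-high monocytes (340.0, 301 and 301 CPM). Ly6c-low monocytes (271, 213 and 246 CPM) and neutrophils (252, 221 and 216 CPM) followed and overlapped with each other. After TMM scaling the order turned: neutrophils stood first, at 353 to 452 TMM-scaled CPM, above Ly6c-high monocytes (271 to 309) and Ly6c-low monocytes (195 to 249), with no overlap. On the plain scale B cells had 136, 134 and 117 CPM, CD4 T cells 74.3, 99.5 and 75.4 CPM and CD8 T cells 44.2, 49.4 and 45.6 CPM, with no overlap between these classes. NK cells stood apart at 1.32, 5.81 and 0 CPM: 6 UMIs in 882 cells. An Ifngr2 UMI was present in 0.68% of NK cells (exact 95% interval 0.25% to 1.47%), against 16.5% of CD8 T cells (interval 15.1% to 17.9%), while an Ifngr1 UMI was present in 96.5% of NK cells. Platelets, a class with little RNA, had 2 Ifngr2 UMIs in 365 cells (0.548%), so the share in NK cells is near the lowest seen in any class. Gamma-delta T cells, with 80 cells, had 21.2, 14.7 and 13.6 CPM of Ifngr2 beside 1000.1, 1179 and 966 CPM of Ifngr1. Their pooled Ifngr2 level was 0.401 of that of CD8 T cells (exact 95% interval 0.146 to 0.877), and 7.50% of them held a UMI. Their class was called by T cell markers and a Trdc UMI, with no Cd4 or CD8 marker. Trac, the alpha-chain constant gene of the T cell receptor, was detected in 45.0% of the gamma-delta T class. Trdc was also detected in 44.6% of NK cells, so the gamma-delta T class may be mixed. Of the NK cells, 5 held UMIs of both chains (0.64% ± 0.75), against 86.7% ± 2.79 of Ly6c-high monocytes, 24.4% ± 1.59 of neutrophils and 11.9% ± 1.94 of CD8 T cells. Thinned to 2000 UMIs, these shares were 0.30% ± 0.39 in NK cells, 41.7% ± 3.95 in Ly6c-high monocytes, 15.8% ± 1.07 in neutrophils and 4.49% ± 1.97 in CD8 T cells.

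The stretches before the starts of these 2 genes are shown because their transcripts part in NK cells, and the stretch before Ifnlr1 because of its restriction to few classes. They are RefSeq promoter windows on GRCm38.p6, plus strand, up to the base before the first annotated start; capitals mark the GC box GGGCGG or its reverse complement. For Ifnlr1 the window is cut to 80 bases, since GENCODE places the start 170 bases before that of RefSeq.
Ifngr1 (chr10:19591699-19591948): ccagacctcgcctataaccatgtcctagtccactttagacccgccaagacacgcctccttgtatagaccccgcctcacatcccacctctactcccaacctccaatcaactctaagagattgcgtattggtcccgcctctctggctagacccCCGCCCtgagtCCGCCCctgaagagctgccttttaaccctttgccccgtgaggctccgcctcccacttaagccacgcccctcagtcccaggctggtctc
Ifngr2 (chr16:91546809-91547058): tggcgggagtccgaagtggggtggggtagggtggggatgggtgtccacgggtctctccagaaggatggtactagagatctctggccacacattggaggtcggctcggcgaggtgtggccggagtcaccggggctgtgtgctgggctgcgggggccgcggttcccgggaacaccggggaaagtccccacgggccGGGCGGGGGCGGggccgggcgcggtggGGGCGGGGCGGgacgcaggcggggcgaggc
Ifnlr1 (chr4:135686207-135686286): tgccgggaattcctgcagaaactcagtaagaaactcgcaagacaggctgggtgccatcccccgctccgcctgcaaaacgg
Both strands of the 250 bases before the RefSeq start were searched for GGGCGG, for the interferon-stimulated response element GAAA, any 2 bases and GAAA again, for the STAT element TTCNNNGAA and for the PU.1 core GAGGAA. Ifngr1 held 2 GC boxes, and Ifngr2 held 4, of which a pair overlaps. Ifnlr1 held 1 GC box in its full window and none in the part shown. No match to the other 3 motifs was found in these 3 genes. Of 32851 RefSeq promoters, 32.7% held a GC box, 2.98% a response element, 7.02% a STAT element and 23.3% a PU.1 core. Ifnar2 held 1 STAT element, and Ifnar1 held 1 PU.1 core and 2 GC boxes. These are matches of letters only.

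Ifnar1, the chain of the type I receptor that carries TYK2, had a similar plain level in the larger leukocyte classes and was lowest of them in Ly6c-low monocytes. It was 185, 185 and 206 CPM in neutrophils, 198, 192 and 183 CPM in Ly6c-high monocytes, 207, 201 and 186 CPM in CD4 T cells and 199, 168 and 178 CPM in B cells. Neighbours in the order overlapped from CD4 T cells (mean 198 ± 11.1 CPM) down to Ly6c-low monocytes (155 ± 14.5 CPM). Ly6c-low monocytes (144 to 171 CPM) overlapped only with B cells and lay below the other larger leukocyte classes. Platelets (25.5 ± 15.3 CPM) stood far below all of these. This holds for plain totals: on the TMM scale neutrophils stood first at 311 to 337, with no overlap with Ly6c-high monocytes (165 to 179.8) or the lymphocytes (means of 142 to 143). Ifnar2, the chain that binds type I interferon with high affinity, was highest in Ly6c-high monocytes (374, 353 and 377 CPM) and Ly6c-low monocytes (380.1, 315 and 334 CPM), which overlapped. Neutrophils (164 ± 7.36 CPM) and NK cells (155 ± 5.48 CPM) came next and overlapped in plain CPM, followed by CD8 T cells (136 ± 11.0 CPM). CD4 T cells (92.2 ± 3.37 CPM) and B cells (89.0 ± 5.02 CPM) were lowest of the larger leukocyte classes. On the TMM scale Ifnar2 in neutrophils (269.7 to 288) did not overlap with that in NK cells (110.2 to 125). A UMI of both chains was present in 63.4% ± 4.52 of Ly6c-high monocytes, 13.9% ± 1.88 of neutrophils and 11.3% ± 1.54 of B cells. Thinned to 2000 UMIs, the share was 15.2% ± 5.10 in Ly6c-high monocytes, 8.79% ± 2.99 in neutrophils and 4.92% ± 0.58 in B cells.

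**Figure D3:**
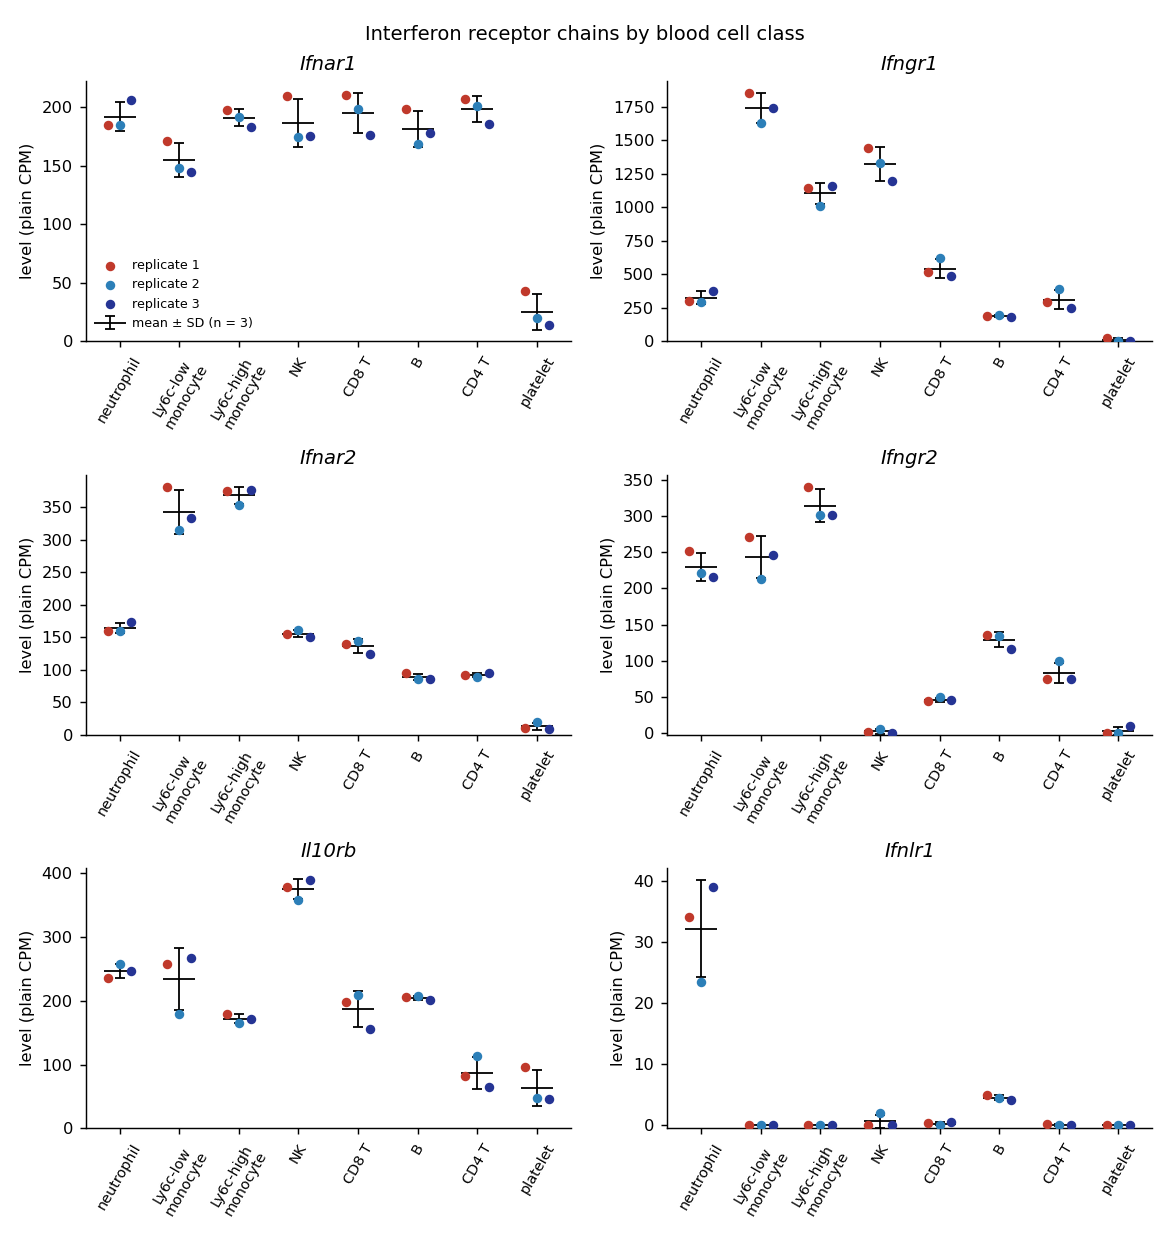
Levels (plain CPM, vertical axes that differ between panels) of the 6 receptor chains in 8 classes. Points are the 3 libraries and black marks the mean ± SD. On this scale Ifnar1 varies little across the larger leukocyte classes and is lowest of them in Ly6c-low monocytes. Ifngr2 is near 0 in NK cells and Ifnlr1 is highest in neutrophils.

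Between neutrophils and Ly6c-high monocytes, the contrast by which Ifnlr1 was chosen, the values of the other chains depend on the scale. The TMM factor was 0.56 to 0.61 in neutrophils and at most 1.11 in Ly6c-high monocytes. The log2 fold of Ifngr2 was 0.48 with TMM and -0.44 with plain totals, and that of Ifnar1 was 0.91 with TMM and -0.01 with plain totals. Il10rb was higher in neutrophils on both scales (1.43 with TMM, 0.51 with plain totals), and Ifngr1 (-0.86 and -1.78) and Ifnar2 (-0.25 and -1.17) were lower on both. The median over all 10403 genes in this contrast was -0.02 with TMM and -0.95 with plain totals. edgeR called 72.8% of those genes at an adjusted p under 0.05, 3683 higher and 3893 lower in neutrophils with TMM, and 1733 higher and 6436 lower with plain totals. No p is given here for a member.

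Between the monocyte subsets, 3 of the 5 members other than Ifnlr1 differed, with Ifngr1 and Il10rb higher and Ifngr2 lower in Ly6c-low than in Ly6c-high monocytes. Ly6c-low monocytes patrol the vessel wall and Ly6c-high monocytes enter inflamed tissue. The test was edgeR's quasi-likelihood test on UMIs summed per library and class, with TMM scaling and the library as a block, adjusted over all genes by the Benjamini-Hochberg method. It called 33.1% of 10403 genes in this comparison. Ifngr1 was higher by 0.69 on the log2 scale (SE 0.11, adjusted p = 2.86e-06 in edgeR) in 3 of 3 libraries. Il10rb was higher by 0.51 (SE 0.12, adjusted p = 0.000574), at 257, 179 and 268 CPM in Ly6c-low monocytes and 179, 165 and 172 CPM in Ly6c-high monocytes. The ranges did not overlap, but replicate 2 of the Ly6c-low class lay at the top of the Ly6c-high range, and without replicate 1 the call was lost (adjusted p = 0.122). Ifngr2 was lower by 0.32 (SE 0.11, adjusted p = 0.0186), a call lost with DESeq2 (adjusted p = 0.11), without the library block (adjusted p = 0.0506) and without replicate 1 or 2 (adjusted p = 0.0996 and 0.0674). Ifnar1 had a log2 fold of -0.26 (SE 0.11, adjusted p = 0.0577) and Ifnar2 one of -0.05 (SE 0.09, adjusted p = 0.962), and Ifnlr1 had no UMI in either subset.

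Other parts of the pathway also differed between the monocyte subsets. Of the 7 genes of JAK-STAT signalling, 2 were higher in Ly6c-low monocytes (Jak2 by 0.76, Stat3 by 0.62) and 3 were lower (Stat2 by a log2 fold of -1.37, Irf9 by -0.68, and Tyk2). Of 7 negative regulators, 5 were higher, led by Socs3 (2.14), an inhibitor of JAK kinases, and Ptpn11 (1.20), a tyrosine phosphatase, and 1 was lower, Usp18 (-3.44), which binds IFNAR2 and dampens type I signals. Il10ra, the ligand-binding IL-10 receptor chain that pairs with IL10RB, rose by 0.51 together with Il10rb. Of 28 tested genes of the type I and III interferon-stimulated list, 25 were lower and 1 was higher in Ly6c-low monocytes, with a median log2 fold of -1.41 beside a median of -0.0048 over all genes. Of 18 tested genes of the interferon gamma-stimulated list, 4 were higher (Gbp8 by 2.70, Gbp9 by 1.16) and 4 lower (Gbp7 by -2.13, Gbp3 by -1.91), with a median of 0.04.

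NK cells differed from CD8 T cells, the other cytotoxic lymphocytes, most of all in Ifngr2. NK cells held 6 Ifngr2 UMIs and CD8 T cells 557. The log2 fold was -4.48 (SE 0.37, adjusted p = 1.39e-16 in edgeR), lower in 3 of 3 libraries, and the pooled ratio of NK to CD8 T cells was 0.0426 (exact 95% interval 0.0156 to 0.0933). Over the alternatives the log2 fold ran from -5.17 to -3.64. Ifngr1 moved the other way, by 1.38 (SE 0.11, adjusted p = 1.52e-13), and Il10rb was higher in NK cells by 1.06 (SE 0.11, adjusted p = 1.53e-12), each in 3 of 3 libraries. Ifnar2 was called higher by 0.25 (SE 0.11, adjusted p = 0.0463), but 9 of the 10 alternatives lost that call, with adjusted p from 0.0502 to 0.209. Ifnar1 had a log2 fold of 0.04 (SE 0.10, adjusted p = 0.795). The test called 48.7% of 10403 genes here and 4 of the 5 members. The 2 CD8 markers summed to 7.90 to 19.4 CPM in NK cells and 3518 to 3702 CPM in CD8 T cells. The 6 NK markers summed to 7266 to 8158 CPM in NK cells and 109 to 134 CPM in CD8 T cells. The 6 T cell markers summed to 947 to 1105 CPM in NK cells and 7571 to 8075 CPM in CD8 T cells. Some markers were shared: Lck, a T cell marker, was detected in 87.2% of NK cells and 96.6% of CD8 T cells. Eomes, an NK marker, was detected in 78.9% of NK cells and 21.2% of CD8 T cells.

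Transcripts of IFN-γ itself were found mostly in NK cells. Ifng had 89.1, 96.9 and 89.3 CPM in NK cells and 1.38, 0.941 and 0.460 CPM in CD8 T cells, a log2 fold of 6.36 (SE 0.33; adjusted p = 3.02e-25 in edgeR). An Ifng UMI was present in 22.2%, 27.0% and 21.6% of NK cells, and NK cells held 281 of the 354 Ifng UMIs of all cells. Of 7 genes of JAK-STAT signalling, 3 were higher in NK cells, among them Tyk2 (1.75) and Jak1 (0.51), and Irf9 (-0.75) was among those lower. Negative regulators were split, with Ptpn11 (0.87) and Ptpn2 (0.76), a phosphatase that acts on JAK1, higher and 5 lower, among them Socs3 (-2.93) and Usp18 (-1.43). Of 18 tested genes of the interferon gamma-stimulated list, 12 were lower and 3 higher in NK cells (median log2 fold -0.79), with Iigp1, a GTPase of cell-autonomous defence, at -5.53 and Gbp6 at -2.72 the lowest of those called and Gbp3 (0.71) and Irf1 (0.40) the highest. Of 28 tested genes of the type I and III list, 14 were lower and none was higher (median -0.84), beside a median over all genes of -0.04. The share called, 50.0%, is near the 48.7% of all genes, and without replicate 1 the count was 7. Il10ra was higher in NK cells by 2.44, the same direction as Il10rb.

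B cells differed from CD4 T cells in 3 of the 5 members other than Ifnlr1. That share, 60%, is near the 55.6% of all 10403 genes called in this comparison. In B cells Il10rb was higher, with a log2 difference of 1.39 (SE 0.11, adjusted p = 2.09e-17 in edgeR), and so was Ifngr2, at 0.81 (SE 0.11, adjusted p = 7.41e-10), while Ifngr1 was lower by a log2 fold of -0.60 (SE 0.11, adjusted p = 1.94e-05). Each held its direction in 3 of 3 libraries, and in each the per-library CPM ranges of B and CD4 T cells did not overlap. The differences of the 2 IFN-γ receptor chains between B and CD4 T cells had opposite signs. Ifnar1 had a log2 fold of -0.00 (SE 0.08, adjusted p = 0.988) and Ifnar2 one of 0.07 (SE 0.09, adjusted p = 0.522). Ifnlr1, given as a description, had 143 UMIs in B cells and 1 in CD4 T cells, a pooled ratio of 37.5 with an exact 95% interval of 6.63 to 1492.

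Of the 7 signalling genes, Stat2 (1.09) and Jak2 (0.41) were higher in B than in CD4 T cells, and Jak1 (-0.62) and Stat3 were among those lower. Of the negative regulators, only Ptpn6 (1.94), a phosphatase known as SHP-1, was called higher in B cells, and 4 were called lower, led by Socs3 (-3.26) and Socs1 (-2.36). Il10ra was higher by 2.45. Of 18 tested genes of the interferon gamma-stimulated list, 14 were lower in B cells, led by Iigp1 (-7.00) and Gbp8 (-4.87), and 2 were higher, with a median of -1.61. Of 28 tested genes of the type I and III list, 15 were lower, among them Ifit1 (-2.99) and Ifih1 (-2.96), and 3 were higher, with a median of -0.67. Over all genes, 2871 were called higher and 2916 lower with TMM (median 0.01), and 2293 higher and 3726 lower with plain totals (median -0.10).

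**Figure D4:**
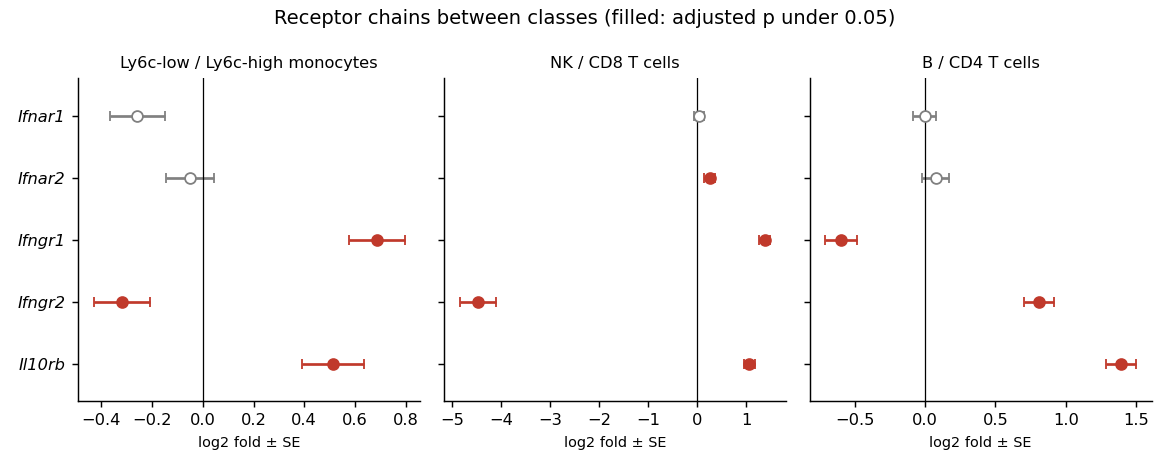
Log2 folds ± SE (horizontal axes that differ between panels) of 5 receptor chains between Ly6c-low and Ly6c-high monocytes, NK and CD8 T cells, and B and CD4 T cells, with the first-named class on top of the fold. Filled points passed an adjusted p of 0.05 in edgeR; Ifngr1 and Ifngr2 point in opposite directions in all 3 panels.

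The interferon ligands other than Ifng were almost undetected. Of the 21 listed ligands 17 have an entry. Ifnl2 and Ifnl3, the genes of IFN-λ, had 0 UMIs in all 21767 cells, Ifnb1 had 1, and Ifnab had the most of the type I genes, with 9. Among the other class II cytokine receptors, counted in the 8 larger classes, Il20ra had 4 UMIs, in NK cells, F3 had at most 5 in a class and Il22ra1 at most 1. Il22ra2, the secreted receptor that binds IL-22, had 21 UMIs in neutrophils (3.39 CPM on average) and 2 in each monocyte subset.

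The kinases and factors that act below the chains had an uneven profile in neutrophils. Tyk2, the kinase of IFNAR1 and IL10RB, had 19.2 CPM in neutrophils, against 125 CPM in Ly6c-high monocytes, 59.9 CPM in B cells and 196 CPM in NK cells, on the plain scale. Stat2 had 20.1 CPM in neutrophils, 137 CPM in Ly6c-high monocytes and 95.2 CPM in B cells. Both were lower in neutrophils than in Ly6c-high monocytes with TMM scaling as well, by a log2 fold of -1.71 for Tyk2 and -1.85 for Stat2. Jak1 had 510 CPM in neutrophils and 231 CPM in Ly6c-high monocytes on the plain scale. It had 238 CPM in Ly6c-low monocytes, 501 in B cells, 601 in platelets, 833 in CD4 T cells, 1006 in CD8 T cells and 1352 in NK cells. Socs3 had 268 CPM in neutrophils and 42.0 CPM in Ly6c-high monocytes on the plain scale. It had 189 CPM in Ly6c-low monocytes, 134 in CD4 T cells, 116 in CD8 T cells, 13.9 in NK cells and 12.4 in B cells. The log2 folds over Ly6c-high monocytes with TMM scaling, which raises neutrophil values relative to theirs, were 2.06 for Jak1 and 3.52 for Socs3.

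Neutrophils with an Ifnlr1 UMI were next set against neutrophils without one, 223 cells against 669 of the same library, matched on depth. The match was less close in replicate 2. There the medians were 2678 UMIs with and 2671.5 without, but 26 cells with an Ifnlr1 UMI held 86614 UMIs and 78 without held 230145, fewer per cell. None of the other 5 members and no gene of the interferon-stimulated, signalling or regulator lists passed the test. The log2 folds of the members ran from -0.14 (Ifngr2, SE 0.16) to 0.12 (Ifngr1, SE 0.14), all at an adjusted p of 0.999 in edgeR. In all, 5 of 4018 genes (0.124%) were called. Ltf, the specific-granule protein lactoferrin, was higher by 4.95 (SE 0.29, adjusted p = 3.36e-06). Cd177, a surface protein of neutrophils, was higher by 1.34 (SE 0.18), Adpgk, a glycolytic kinase, by 1.41 (SE 0.25) and S100a9 by 0.29 (SE 0.05), and Apoe was lower by a log2 fold of -0.70 (SE 0.14), each in 3 of 3 libraries. Ltf was uneven between libraries, at 122, 5611 and 7.29 CPM in cells with an Ifnlr1 UMI and 7.17, 143 and 4.88 CPM in those without. Both values of replicate 3 rest on fewer UMIs than the floor of 3 counts, so that library does not show a rise. Replicate 2 stands far above the others.

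A set of 12 neutrophils, 5 in replicate 1 and 7 in replicate 2, was rich in granule transcripts: each held 5 or more UMIs of Ltf, Camp and Ngp (genes of the secondary granules made in bone marrow). They were deep, with a median of 6087.5 UMIs, and 7 of the 12 held an Ifnlr1 UMI, 10 UMIs in all. With these cells left out, a choice made after seeing the values, Ltf was no longer testable, Cd177 had a log2 fold of 0.38 (SE 0.24; adjusted p = 0.999 in edgeR), Adpgk one of -0.03 (SE 0.42) and Apoe one of -0.81 (SE 0.27, adjusted p = 0.999). S100a9 was called higher (0.17, SE 0.03, adjusted p = 7.09e-07). S100a8 (0.15), Retnlg (0.53), a gene of blood neutrophils, and Slfn4 (-0.46), an interferon-inducible gene, were called in addition; these 3 were noticed after their values were seen. In the full set the S100a9 call was lost with plain totals (adjusted p = 0.0937), no filter (0.520), DESeq2 (0.676), without replicate 1 (0.995) or 3 (0.317) and without the block. Without the library block no gene was called (109 at an unadjusted p under 0.05), and DESeq2 called 1, Cd177. Without replicate 1 Ltf alone was called, without replicate 3 there were 4 calls, and without replicate 2 there were 8, among them S100a9 and the haemoglobin genes Hbb-bs and Hbb-bt. The part of free erythroid RNA in this comparison was not tested: the 6 erythroid markers summed to 1464 to 11153 CPM in cells with an Ifnlr1 UMI and 252 to 34135 CPM in those without. The 8 neutrophil markers summed to 154702 to 192313 CPM with an Ifnlr1 UMI and 139747 to 154220 CPM without.

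Mmp8, a collagenase of neutrophil granules, was used for a further split of 817 neutrophils with a UMI against 817 without. No member passed the test. Ifnlr1 had 34.9, 27.1 and 37.1 CPM in neutrophils with Mmp8 and 30.1, 13.2 and 41.3 CPM in those without, a log2 fold of 0.25 (SE 0.29; adjusted p = 0.943 in edgeR). The libraries overlapped, and in replicate 3 the direction was turned. Il10rb had the largest difference of the other members, 0.19 (SE 0.11, adjusted p = 0.703). The test called 46 of 4755 genes (0.967%). Of 22 tested genes of the type I and III interferon-stimulated list, 3 were lower in cells with Mmp8 (Slfn5 by -0.57, Rtp4 by -0.49, Oasl2 by -0.44) and none higher, but none was called with DESeq2, without the block or without replicate 1 or 3. Irf1 (-0.28) was lower as well. Lyz2 (0.74), Cd177 (0.66) and Lcn2 (0.29), a granule protein that binds siderophores, were higher, and Hbb-bs (-0.90) and Hbb-bt (-0.87) were lower. The 6 erythroid markers summed to 356 to 14076 CPM with Mmp8 and 673 to 22610 CPM without, and their part in the result was not tested. Without the library block 3 genes were called and with DESeq2 7; without replicates 1, 2 and 3 the count was 10, 26 and 8.

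Neutrophils were also split by their level of interferon-stimulated transcripts, with 870 cells of high and 870 of low level matched on depth within each library. None of the 6 members passed the test between high and low cells. Ifnlr1 had 36.2, 38.2 and 27.3 CPM in high cells and 31.8, 14.2 and 50.0 CPM in low cells (log2 fold 0.15, SE 0.27, edgeR adjusted p = 0.951), and the log2 folds of the others ran from -0.13 (Ifngr1, SE 0.09) to 0.01 (Ifngr2, SE 0.10). Other genes of the interferon response rose with the split. Irf9 was higher by 1.90 (SE 0.14) and Usp18 by 5.60 (SE 0.35), among 113 of 4586 genes called (2.46%), 105 higher and 8 lower. The genes used for the split were left out of the test. Other genes of the same response vary together with them, so their rise describes the split and is no independent result. All 10 tested genes of the interferon gamma-stimulated list were higher (median log2 fold 1.35), led by Irgm1 (2.88) and Gbp7 (2.19); several of them are known to respond to type I interferon as well. Without replicate 1, 5 of the 10 were called, and with DESeq2 6. Slfn8 (3.56), Ifi47 (2.92) and Eif2ak2 (2.67), the kinase PKR, had high folds among genes of no list, and Mmp8 (-0.33) and Wfdc21 (-0.39) were lower. The erythroid markers summed to 1017 to 20651 CPM in high cells and 158 to 21084 CPM in low cells, and the neutrophil markers to 127364 to 132788 CPM in high cells and 145026 to 154427 CPM in low cells. Their part in the result was not tested. Without replicate 1 the count was 35, without the library block 70 and with DESeq2 50; Usp18 was not called without the block.

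B cells with an Ifnlr1 UMI, 129 cells against 387 matched B cells, were compared in the same way after the Ifnlr1 UMIs in B cells had been seen. Of 6145 genes, 7 (0.114%) were called. No member passed: Ifnar2 had 86.5, 50.0 and 59.3 CPM in cells with an Ifnlr1 UMI and 95.6, 117 and 97.3 CPM in those without (log2 fold -0.59, SE 0.28, edgeR adjusted p = 0.922). Traf1, an adaptor of TNF receptors, was higher by 1.32 (SE 0.31, adjusted p = 0.0196), and Ptms was also called higher. Also called higher were the erythroid genes Alas2 (0.82), Hbb-bs (0.72), Hbb-bt (0.69) and Hba-a2 (0.67). The erythroid markers summed to 1569 to 43293 CPM with an Ifnlr1 UMI and 1091 to 29323 CPM without, and their part in the result was not tested. Without the library block no gene was called (266 at an unadjusted p under 0.05), and DESeq2 called 2, Hba-a2 and Hbb-bt. Without replicates 1, 2 and 3 the count was 6, 3 and 3, and Traf1 and Ptms were in none of these. The 8 neutrophil markers summed to 151 to 284 CPM with an Ifnlr1 UMI and to 161 to 272 CPM without one.

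**Figure D5:**
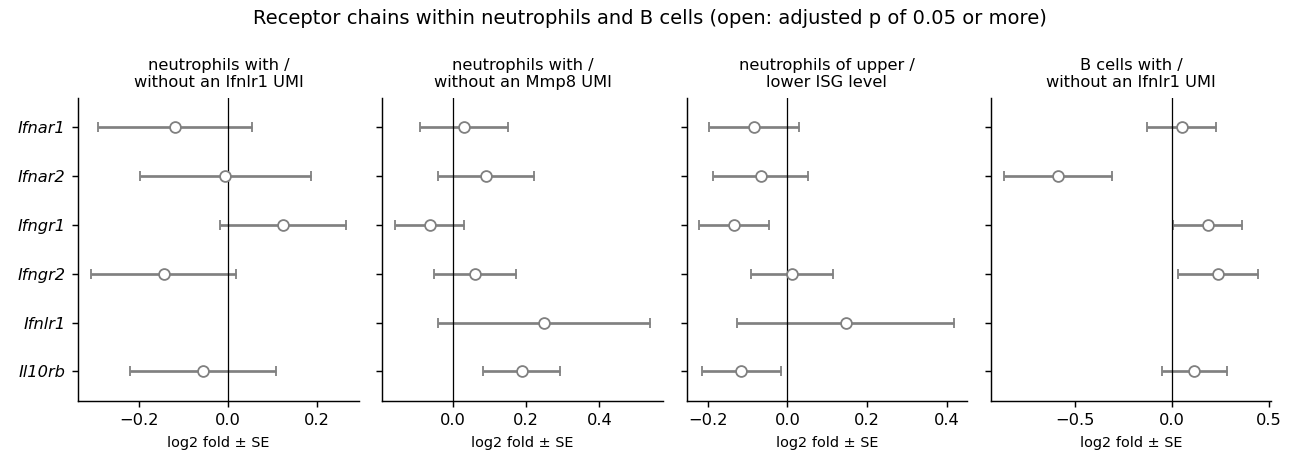
Log2 folds ± SE (horizontal axes that differ between panels) of the receptor chains in 4 splits within a class, neutrophils with against without an Ifnlr1 UMI, with against without an Mmp8 UMI, of high against low interferon-stimulated level, and B cells with against without an Ifnlr1 UMI. All points are open, since no member passed an adjusted p of 0.05 in edgeR.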

How the data were processed

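The deposited files hold raw UMI counts per gene and cell barcode, made by the authors with Cell Ranger 7.1.0 per the file headers. Cells were prepared with a fixed-RNA probe kit per the labels' protocols; no source used here gives the genome build or the probe set. Probes read a short part of each transcript, so levels are compared between cells, not between genes. Total counts were 45718031, 19591648 and 23443660 UMIs in replicates 1, 2 and 3.

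Barcodes with fewer than 200 genes and doublets marked by Scrublet (scanpy 1.11.5; 667, 116 and 138 cells) were left out. A cell was classed by how many markers of each class had a UMI. Counts were summed per library and class, or per library and arm, and tested with edgeR 4.0.16 (quasi-likelihood, TMM, filterByExpr, robust) in R 4.3.3, with Benjamini-Hochberg adjustment over all genes and a threshold of 0.05. The 8 classes with 20 or more cells in each library shared a fit. The library was a block, because both arms come from each library. Arms within a class were matched on depth within a library, with up to 3 cells without an Ifnlr1 UMI per cell with one. The script was tested on simulated data. Plain CPM divides by the total count; intervals and floors (3 counts) cover counting error only. Named genes are the members, the 2 highest and 2 lowest called log2 folds of each list, the 5 highest and 5 lowest called in splits of neutrophils, and the 5 genes most like Ifnlr1. Some genes that this rule names are not reported here. The members and lists were chosen with earlier results of these data known. Alternatives were other size factors, plain totals, DESeq2 1.42.0, no filter, no block, each replicate left out, doublets kept and a stricter marker rule; the split of B cells and the removal of granule-rich cells were added after seeing the data.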

Additional observations from a re-analysis of the deposited data

Results flagged for a closer look

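Cells that met the marker rule of 2 or more classes entered no comparison, and 16 of these 624 cells held an Ifnlr1 UMI (2.56%, 17 UMIs), a signal in cells no comparison used. That share lies between those of neutrophils (8.43%) and B cells (1.36%), but the shares are not matched on depth. The median was 3970 to 7763.5 UMIs in cells of 2 or more classes. It was 2657 to 2808.5 UMIs in neutrophils and 3072 to 3224 UMIs in B cells. A Cd79a UMI, a B cell marker, was present in 64.7% of the 624 cells. Ppbp, a platelet marker, was present in 59.1% and Cd3d, a T cell marker, in 34.0%. Of the neutrophil markers, S100a8, which is also a background in other classes, was present in 30.3%, Mmp9 in 16.0% and Cxcr2 in 15.5%.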

How the results depend on the processing

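Under the alternatives, 376 log2 folds of members kept direction and call, 27 uncalled ones changed sign, 18 lost and 2 gained a call, and 2 were reversed. The tally covers every comparison, including that of neutrophils against Ly6c-high monocytes, for which no test of members is given. It also covers the splits within neutrophils and B cells, where no member was called and so no call could be lost. It is therefore no measure of how firm the calls are. Between neutrophils and Ly6c-high monocytes, plain totals turned Ifnar1 to -0.0087 and Ifngr2 to -0.44; TMM corrects for the composition of each sum and plain totals do not. Without the library block (a replicate block, in which both arms come from the same library) no gene was called for Ifnlr1 detection in neutrophils (0) or B cells (0), 3 for Mmp8 detection and 70 for the interferon-stimulated level, against 5, 7, 46 and 113 with it. DESeq2 called 1, 2, 7 and 50 in the same order, and with no filter on low counts Ifnlr1 detection in neutrophils gave 10; the cause was not tested. With each replicate left out in turn, the counts ran from 1 to 8 for Ifnlr1 detection in neutrophils, 3 to 6 in B cells, 8 to 26 for Mmp8, 35 to 126 for the interferon-stimulated level, 1968 to 3064 between monocyte subsets and 3251 to 4701 between NK and CD8 T cells; the lowest count of the last 2 was without replicate 1, the largest library. Thinning to 1000 UMIs put the share of neutrophils with an Ifnlr1 UMI at 3.23%, against 8.14% with all UMIs. The share within a class thus depends on depth. The genes called in the splits of neutrophils and B cells by Ifnlr1 rest on 223 and 129 cells.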
